A study of Homo sapiens with 32 samples.

Results

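The response to tunicamycin was examined in HCT116 clones labelled as IGF2BP3 knockouts, using the 12 of the 32 libraries of the series that came from IGF2BP3 knockout clones. The libraries were chosen by their labels: 6 were treated with tunicamycin and 6 were DMSO controls. HCT116 is a human colorectal carcinoma line, and every cell of the study, parental cells included, carries the Tet-OsTIR1-PURO background (doxycycline-inducible OsTIR1). The treated cells received 5 µg/mL tunicamycin for 4 h, and the controls received DMSO diluted 1:1000. The knockout was represented by 3 clones, A3, D12 and E4, each grown from a single sorted cell after transient transfection of Cas9, with 2 libraries per clone and treatment. Parental cells (8 libraries) and 3 IGF2BP2 knockout clones (12 libraries) served only for comparison of the response. The protocol gives the dose and time for the IGF2BP3 knockout and parental cells, and the labels name only tunicamycin or DMSO for the IGF2BP2 knockout.

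Tunicamycin blocks the first step of N-linked glycosylation, so that proteins misfold in the endoplasmic reticulum (ER) and the unfolded protein response (UPR) begins. The UPR has 3 sensors in the ER membrane. ATF6 is cleaved to a transcription factor that induces ER chaperones, IRE1 (ERN1) splices XBP1 mRNA into the form that encodes an activator of ER-associated degradation, and PERK (EIF2AK3) slows translation while favouring ATF4, which induces CHOP (DDIT3) and genes of amino acid supply. IGF2BP3 is an oncofetal RNA-binding protein that binds mRNAs and affects their stability and translation.

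The guides are shown because the clones do not all carry the same cut. Each site is given 5′ to 3′ with the adjoining PAM in capitals. Both sites lie in the coding sequence on the strand opposite to the IGF2BP3 mRNA, on chromosome 7 of GRCh38 (GENCODE 29). The site of A3 and E4 (chr7:23319200-23319219) is in exon 11 of a transcript with 15 exons, and the site of D12 (chr7:23469990-23470009) is in exon 1 of the same transcript.
A3 and E4: tggcaccgactgatagagctGGG
D12: acgcgtagccagtcttcaccAGG

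Promoters of 5 genes that rose are shown because they carry, by exact letters, elements through which ATF6 and ATF4 are known to act. The ER stress element (ERSE) was searched as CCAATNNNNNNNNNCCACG, ERSE-II as ATTGGNCCACG, the core of the unfolded protein response element (UPRE) as TGACGTG, and the core of the C/EBP-ATF response element (CARE), which ATF4 binds, as TGATGNAA. Both strands were searched, and none of these motifs contains another. The lines give the 250 bases before the RefSeq start of each gene (GRCh38.p14), 5′ to 3′ on the gene's strand, with the fixed letters of each match in capitals. They are HSPA5 (chr9:125241344-125241593, minus strand, ERSE), HERPUD1 (chr16:56931892-56932141, plus strand, CARE core and ERSE-II), CRELD2 (chr22:49918384-49918633, plus strand, ERSE), CHAC1 (chr15:40953221-40953470, plus strand, CARE core) and ASNS (chr7:97872409-97872658, minus strand, CARE core).
HSPA5: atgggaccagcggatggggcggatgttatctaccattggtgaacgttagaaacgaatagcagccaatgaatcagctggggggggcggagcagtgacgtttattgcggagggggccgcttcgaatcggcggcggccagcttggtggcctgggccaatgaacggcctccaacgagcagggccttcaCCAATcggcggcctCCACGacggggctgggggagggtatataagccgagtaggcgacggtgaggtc
HERPUD1: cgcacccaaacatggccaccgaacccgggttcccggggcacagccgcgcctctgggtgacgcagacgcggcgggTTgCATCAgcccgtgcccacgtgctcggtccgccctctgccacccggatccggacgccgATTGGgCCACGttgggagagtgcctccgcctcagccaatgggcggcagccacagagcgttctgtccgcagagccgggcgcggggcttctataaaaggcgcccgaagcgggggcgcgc
CRELD2: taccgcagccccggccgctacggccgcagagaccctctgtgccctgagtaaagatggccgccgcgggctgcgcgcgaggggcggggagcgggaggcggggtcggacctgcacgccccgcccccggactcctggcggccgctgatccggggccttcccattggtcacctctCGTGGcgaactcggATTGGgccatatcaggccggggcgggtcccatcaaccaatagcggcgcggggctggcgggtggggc
CHAC1: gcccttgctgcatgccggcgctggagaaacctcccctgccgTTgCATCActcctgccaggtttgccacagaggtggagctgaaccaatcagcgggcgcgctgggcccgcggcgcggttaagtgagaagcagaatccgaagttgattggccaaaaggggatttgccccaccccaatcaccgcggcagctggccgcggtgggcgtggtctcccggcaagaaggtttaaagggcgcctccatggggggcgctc
ASNS: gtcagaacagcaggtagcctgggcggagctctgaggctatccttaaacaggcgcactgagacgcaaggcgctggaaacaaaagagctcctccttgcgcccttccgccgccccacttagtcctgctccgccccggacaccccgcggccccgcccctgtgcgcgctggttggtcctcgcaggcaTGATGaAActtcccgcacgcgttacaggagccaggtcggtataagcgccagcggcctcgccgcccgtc

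The 12 libraries held 18265342 to 23588704 counts each, and mitochondrial genes took 8.12% to 9.41% of them. Values below are CPM (counts scaled to a common library size) after TMM scaling, and log2 changes come from one edgeR fit over the 12 libraries with clone and replicate number as terms. A gene is called higher or lower when its Benjamini-Hochberg adjusted p in edgeR's quasi-likelihood test is under 0.05. Replicate number was a visible source of variation: treatment separated the libraries on principal component 1 (40.8% of the variance) and replicate number on component 2 (18.8%). Between 21483 and 23139 genes were detected with replicate number 1 and between 23592 and 24267 with number 2. IGF2BP3 mRNA was measured first, since it checks the labels. It stood at 18.5 to 43.4 CPM (median 23.7, scaled by total counts only) in the 6 DMSO libraries of the knockout, below the 74.8 to 81.7 CPM of the 4 parental DMSO libraries. Clone D12, cut in exon 1, had 40.6 and 42.4 CPM after TMM scaling, and A3 and E4 had 18.5 to 24.4 CPM. Residual mRNA does not show whether protein is made. Epithelial markers summed to 3489 to 4321 CPM in DMSO and 3577 to 4856 CPM in tunicamycin. Of these 7 markers 6 averaged over 1 CPM, and VIL1 had too few counts to be tested. Of 5 fibroblast markers, COL1A1 alone averaged over 1 CPM, COL1A2 and LUM had no count, and the fibroblast sum stayed between 8.62 and 12.03 CPM. Immune and endothelial marker sums stayed under 1 CPM. In bulk libraries a change in the share of cells that express a gene and a change in RNA per cell cannot be told apart.

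Tunicamycin changed a large part of the transcriptome of the knockout clones within 4 h, mostly by small steps. Of 14265 genes tested, 5980 were called (41.9%), 2830 higher (19.8%) and 3150 lower (22.1%), with a median size of 0.33 on the log2 scale. The larger changes leaned upward: 325 genes rose by more than 1 on the log2 scale (2.28%) and 151 fell by more than 1 (1.06%). All 6 treated libraries lay above all 6 controls for 1259 genes (8.83%) and below them for 1220 (8.55%). Counts of called genes in each list below are to be read beside these shares. Without the replicate term 4820 genes were called, all of them among the 5980.

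The 10 largest rises among genes with a mean count of at least 100 were DDIT3, CHAC1, LURAP1L, DDIT4, HERPUD1, TSC22D3, SESN2, DNAJB9, ASNS and TRIB3, with log2 changes from 6.45 down to 3.35. DDIT3, which encodes the pro-apoptotic transcription factor CHOP, had 2.11 to 4.03 CPM in DMSO (median 2.72) and 209 to 290 CPM in tunicamycin (median 248). The groups were far apart in all 3 clones, and the rise was 87.1-fold (log2 6.45, SE 0.0963, adjusted p 3.73e-17). CHAC1, a glutathione-degrading enzyme induced by ATF4, went from 1.75 to 3.15 CPM (median 2.14) to 90.6 to 129 CPM (median 106). DDIT4, an inhibitor of mTORC1 signalling, went from 2.43 to 3.11 CPM (median 2.83) to 78.7 to 126 CPM (median 95.2). SESN2, a stress-induced leucine sensor upstream of mTORC1, had 5.55 to 7.34 CPM (median 5.73) in DMSO and 87.1 to 106 CPM (median 94.9) in tunicamycin. None of these groups overlapped. The plot of expression by library shows that the spread within a treatment was small beside the step between treatments.

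**Figure D1:**
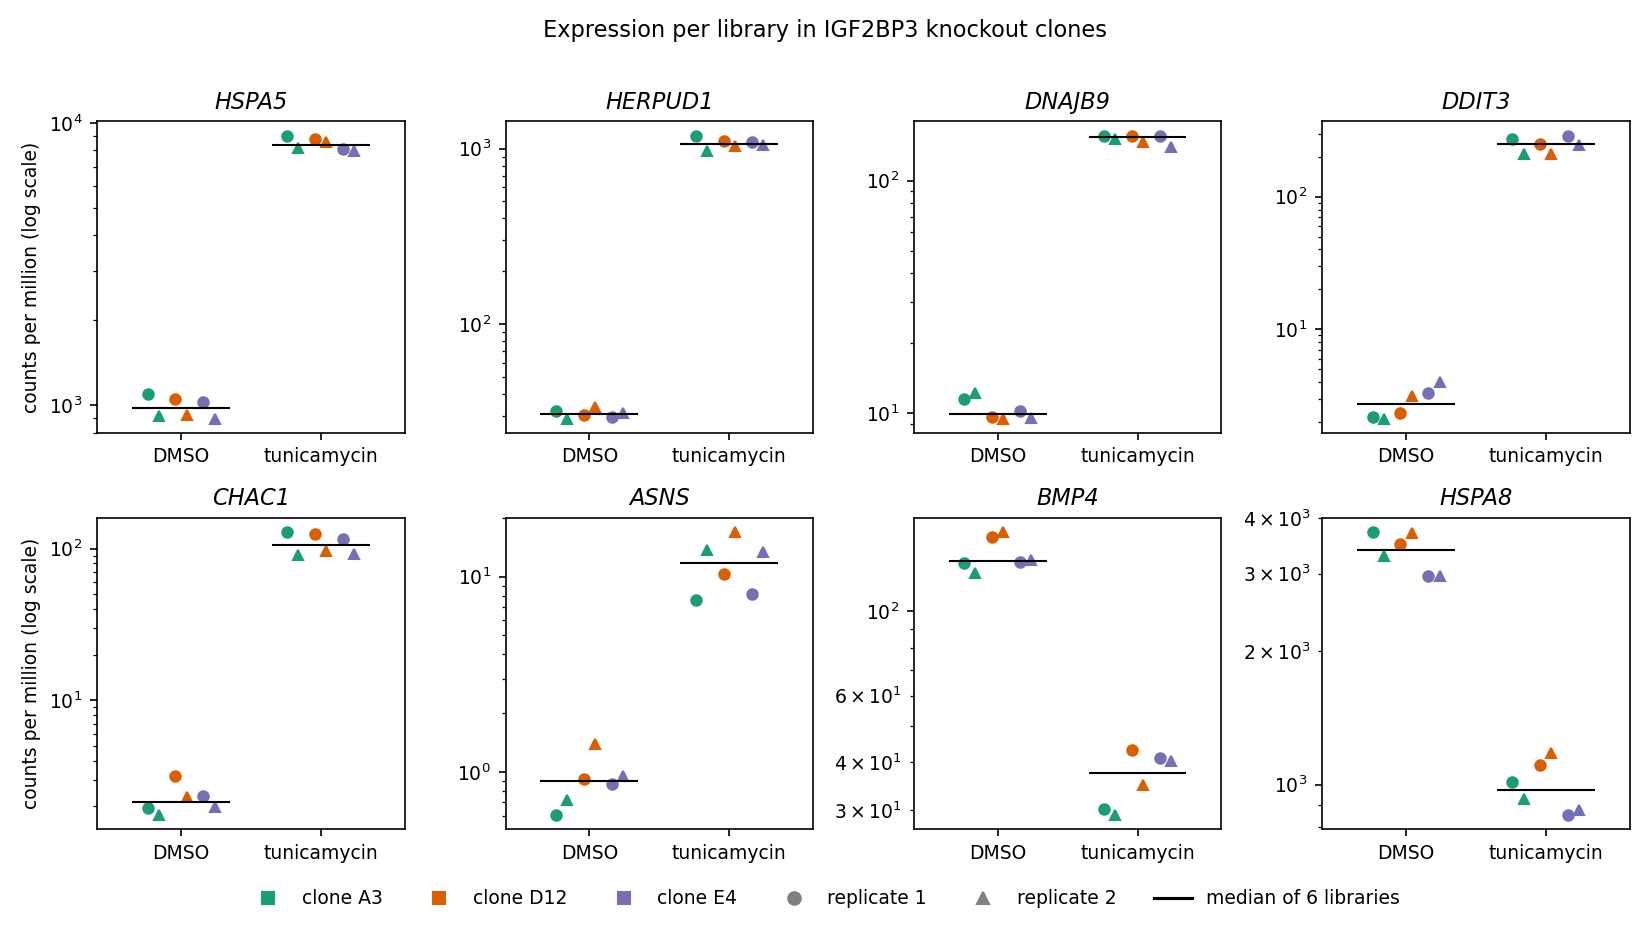
CPM (log axis) of 8 genes in the 6 DMSO and 6 tunicamycin libraries of the IGF2BP3 knockout, coloured by clone, with circles for replicate 1, triangles for replicate 2 and a line at the median of 6 libraries. The treated libraries lie above the controls for HSPA5, HERPUD1, DNAJB9, DDIT3, CHAC1 and ASNS and below them for BMP4 and HSPA8, with no overlap.

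The chaperone arm rose as a whole. All 15 listed ATF6-linked genes, which encode ER chaperones and their partners, were called higher, against 19.8% of all genes tested. Their treated libraries lay entirely above the controls, as did those of 8.83% of all genes tested. The median log2 change was 1.71, against -0.01 over all genes tested. HSPA5 (BiP), the main ER chaperone and the regulator that holds the sensors inactive, had 896 to 1095 CPM in DMSO (median 977) and 7967 to 9032 CPM in tunicamycin (median 8353). Its rise was 8.57-fold (log2 3.10, SE 0.0365, adjusted p 3.33e-18). HERPUD1, an ER membrane protein of the degradation machinery, had 28.9 to 33.6 CPM (median 30.8) and 964 to 1186 CPM (median 1068), a 34.6-fold rise. SDF2L1, a BiP co-factor, had 41.2 to 51.7 CPM (median 49.4) and 217 to 292 CPM (median 252). The smallest rise of the list was that of CANX (log2 0.56), the membrane-bound lectin chaperone that reads N-glycans, and its soluble relative CALR rose by 1.17. The disulfide isomerases PDIA4 (1.36), PDIA3 (0.91) and PDIA6 (0.89) lay between them and the leading genes.

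The ERSE letters were more frequent in the promoters of these genes than in those of all genes tested. Windows of 300 bases (250 before to 50 after the start) were matched for 10393 tested genes, 15 of which held an ERSE (0.144%) and 11 an ERSE-II (0.106%). Among 14 matched genes of the chaperone list, 5 held an ERSE (35.7%) and 3 an ERSE-II (21.4%). Of the 232 matched genes called with a log2 change above 1, 9 held an ERSE (3.88%), against 3 of 5759 genes not called (0.0521%) and 0 of the 99 called below -1. The ERSE in the CRELD2 promoter printed above also lies in the upstream window of ALG12, an ER mannosyltransferase gene that starts on the other strand beside it. ALG12 rose by 0.78 and CRELD2 by 1.88 on the log2 scale. Their exons overlap on opposite strands, with mean counts of 186 for ALG12 and 1837 for CRELD2. The strand setting of the counting is not given, so the rise of ALG12 is uncertain. The CARE core was in 6 of 16 matched tRNA synthetase genes (37.5%), in 3 of 13 genes of amino acid supply (23.1%) and in 2 of 13 genes of the ATF4 and CHOP list (15.4%), against 1.65% of the matched tested genes. The UPRE core was in 1 of 23 genes of the XBP1 list (4.35%), against 2.57% of the tested genes. In the whole table of 27305 windows, 0.0806% held an ERSE, 0.0549% an ERSE-II, 2.00% a UPRE core and 3.67% a CARE core. The chaperone list was drawn up as ATF6-linked and the ERSE is a known ATF6 element, so its excess there is no independent support. The same holds for the CARE core in lists linked to ATF4. The 232 genes called above 1 include members of the chaperone list. A match describes letters in a window and not a bound site.

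Genes of ER-associated degradation and protein entry into the ER rose broadly but by less. Of 25 tested genes of the XBP1 list, 24 were called higher and SEC62, a translocation channel component, did not pass (log2 0.03), with a list median of 0.52. DNAJB9, a BiP co-chaperone that also restrains IRE1, had 9.48 to 12.2 CPM (median 9.94) in DMSO and 140 to 156 CPM (median 153) in tunicamycin. The ubiquitin ligase SYVN1 rose by 2.72, the mannosidase-like EDEM1 by 2.29 and the retrotranslocation factor DERL2 by 1.79. Subunits of the translocon moved little: SEC61A1 rose by 0.51, SEC61B by 0.26 and SEC61G by 0.22. The other 1 of 26 list genes, DERL3, did not pass the filter on low counts.

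The sensors differed from one another. Of 16 tested genes of the sensor and regulator list, 10 were called higher and 2 lower (median 0.26), against 19.8% and 22.1% of all genes. Whichever clone or replicate number was left out, 1 was called lower. EIF2AK3 (PERK) had 10.4 to 13.0 CPM (median 11.5) in DMSO and 72.2 to 87.0 CPM (median 78.8) in tunicamycin, a 6.82-fold rise with no overlap. XBP1 had 50.003 to 58.2 CPM (median 53.6) and 233 to 295 CPM (median 255). ERN1 (IRE1) rose by 0.68 and ATF6 by 0.52 on the log2 scale. PPP1R15A, the phosphatase subunit that reverses the PERK signal, rose by 2.48. The eIF2α kinases that answer other stresses gave no call higher: EIF2AK2 fell by 0.26, EIF2AK4 fell by 0.10 and EIF2AK1 had a log2 change of 0.00 that did not pass. Gene counts do not separate spliced from unspliced XBP1.

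The ATF4 and CHOP network had the highest list median and held the largest rise of all, that of DDIT3. Of 14 tested genes 13 were called higher, ATF5 did not pass (log2 0.13, adjusted p 0.0606), and the list median was 2.61. ATF4 itself had 340 to 425 CPM (median 404) in DMSO and 790 to 963 CPM (median 877) in tunicamycin, a 2.21-fold rise. ATF3, a stress-induced partner of ATF4, had 13.9 to 17.3 CPM (median 16.5) and 110 to 169 CPM (median 142). TRIB3, a pseudokinase that restrains CHOP and ATF4, had 29.8 to 46.4 CPM (median 40.9) and 351 to 459 CPM (median 405). CEBPB rose by 2.29 and GDF15, a secreted stress cytokine, by 2.40 on the log2 scale. The 3 remaining genes of the list, NUPR1 and FGF21 among them, did not pass the filter.

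Amino acid supply followed. Of 19 genes 18 were called higher (median 0.91), and ALDH18A1, a proline synthesis enzyme, did not pass (-0.01). SLC7A11, the cystine carrier, had 83.5 to 101 CPM (median 88.6) in DMSO and 269 to 431 CPM (median 373) in tunicamycin. ASNS, asparagine synthetase, had 0.604 to 1.40 CPM (median 0.900) and 7.56 to 16.9 CPM (median 11.8), a 12.6-fold rise. Treated replicate 2 libraries held 13.3 to 16.9 CPM of ASNS and replicate 1 libraries 7.56 to 10.3 CPM. The count of ASNS is uncertain because its exons overlap those of a second gene on the same strand, so that reads can be split or dropped. Of 20 cytosolic tRNA synthetase genes 14 were called higher and 1 lower (median 0.33). WARS1 rose by 1.20, CARS1 by 1.02 and AARS1 by 0.97, while RARS1 fell by 0.15. The tRNA synthetase list gave 0 lower calls without clone A3, without clone E4 or without replicate 1.

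Genes of N-glycosylation, the process that tunicamycin blocks, gave 17 calls higher and 3 lower of 29 (median 0.19). The shares of all genes tested were 19.8% and 22.1%. Without replicate 2 the list gave 1 call lower. DPAGT1, the target of the drug, had 27.5 to 33.7 CPM (median 30.1) in DMSO and 37.0 to 38.8 CPM (median 38.0) in tunicamycin, a 1.25-fold rise without overlap (adjusted p 0.000102). MFSD2A, a lysolipid carrier through which tunicamycin enters cells, had 10.8 to 15.8 CPM (median 13.0) and 20.5 to 26.6 CPM (median 21.6). GFPT1, which opens the hexosamine pathway, rose 2.35-fold, from a median of 106 to 247 CPM. MAGT1, a subunit of the oligosaccharyltransferase, rose 2.08-fold, from 92.6 to 192 CPM. DOLK, which makes the dolichol phosphate carrier of the glycan, fell by 0.76 on the log2 scale.

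Known substrates of IRE1-dependent RNA decay were mixed. Of 7 tested, 5 were called lower and 1 higher, against 22.1% and 19.8% of all genes tested. Without clone D12 or without replicate 2, 3 were called lower. CD59, a complement inhibitor, had 50.3 to 56.4 CPM (median 53.8) in DMSO and 21.2 to 31.9 CPM (median 28.4) in tunicamycin. SCARA3 fell by 0.56 and PMP22 by 0.53 on the log2 scale, and BLOC1S1 did not pass (0.03). The 1 that rose was PER1, a circadian repressor also known as an immediate early gene, from a median of 52.4 to 163 CPM.

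Immediate early genes rose without exception in the list: 17 of 17 were called higher (19.8% of all genes tested), with a median of 1.42. Of these, 16 had treated libraries above all controls, against 8.83% of all genes tested. EGR1, a zinc-finger transcription factor, had 47.2 to 63.0 CPM (median 57.9) in DMSO and 327 to 511 CPM (median 457) in tunicamycin. JUN, an AP-1 subunit, had 9.53 to 17.2 CPM (median 12.2) and 37.0 to 84.5 CPM (median 50.4), and FOS, its partner, rose 2.98-fold. The median of the list was 1.34 to 1.76 in the replicate 1 pairs and 1.12 to 1.37 in the replicate 2 pairs.

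Of 15 death and survival genes 5 were called higher and 4 lower, against 19.8% and 22.1% of all genes tested. The count of lower calls was 1 without clone D12, 2 without clone E4, 1 without replicate 2 and 2 without the replicate term. With a mean CPM of at least 1 required, 14 of these genes were tested and 3 were called lower. PMAIP1 (NOXA) had 117 to 149 CPM (median 126) in DMSO and 281 to 377 CPM (median 325) in tunicamycin. BBC3 (PUMA), like NOXA a BH3-only activator of apoptosis, rose 2.68-fold, from a median of 7.58 to 19.3 CPM. TNFRSF10B (DR5), a TRAIL death receptor induced by CHOP, had 161 to 190 CPM (median 170) and 333 to 417 CPM (median 388). The effector BAK1 fell by 0.49 and the survival gene BCL2 by 0.59, while MCL1 rose by 0.41. Of 11 p53 target genes 2 were called higher, near the 19.8% of all genes, and 6 lower, and 1 was called higher without clone E4, without the replicate term or without the filter. BTG2, an antiproliferative gene, fell from 30.4 to 35.7 CPM (median 32.5) to 13.6 to 18.1 CPM (median 15.8), SESN1 fell by 0.94, and CDKN1A (p21) rose by 0.41.

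The largest falls were smaller than the largest rises. The 10 named by the same rule were BMP4, LRFN1, HSPA8, TGOLN2, ZNF503, KCNJ12, HAS3, GPRC5B, PWWP2B and CBX2, with log2 changes from -1.97 to -1.36. The deepest fall of all genes tested was that of AXIN2 (-2.91), whose mean count of 68.3 kept it out of the rule. BMP4, a ligand of the TGF-beta family, had 127 to 162 CPM (median 136) in DMSO and 29.1 to 43.3 CPM (median 37.6) in tunicamycin (log2 change -1.97, SE 0.0628, adjusted p 3.98e-13). HSPA8, the constitutive cytosolic Hsp70, had 2959 to 3728 CPM (median 3399) and 854 to 1178 CPM (median 971). TGOLN2, a protein of the trans-Golgi network, had 180 to 214 CPM (median 194) and 62.2 to 74.3 CPM (median 66.1). In each of these the treated libraries lay below every control. CBX2, a Polycomb subunit, fell from a median of 53.01 to 20.5 CPM, and HAS3, a hyaluronan synthase, from 34.7 to 11.9 CPM.

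HSPA8 did not fall alone. Of 10 tested cytosolic heat shock genes 6 were called lower and 0 higher (median -0.14), against 22.1% and 19.8% of all genes tested. BAG3, an Hsp70 co-chaperone, fell by 0.92, HSPH1 by 0.50 and HSPE1 by 0.39. HSPA1A and HSPA1B, the stress-induced cytosolic Hsp70 genes, did not pass the filter. The NRF2 list, genes of the antioxidant response, gave 3 calls higher and 1 lower of 10, near the 19.8% and 22.1% of all genes tested. HMOX1, its best known member, had 32.4 to 47.0 CPM (median 36.2) in DMSO and 31.3 to 46.2 CPM (median 37.6) in tunicamycin, with overlapping groups and no call (adjusted p 0.875).

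BMP and Wnt signalling genes leaned lower, where 22.1% of all genes tested were called lower and 19.8% higher. In the BMP, TGF-beta and ID list 7 of 10 tested genes were called lower and 1 higher (median -0.38): the inhibitors BAMBI, SMAD7 and SMAD6 fell by 1.14, 0.96 and 0.90 on the log2 scale, and the target gene ID1 fell by 0.26 with overlapping groups. Of 10 Wnt feedback genes 6 were tested, and of these 4 were called lower and 0 higher (median -0.32). Lower calls numbered 3 whichever clone was left out. They also numbered 3 without replicate 2, without the replicate term, without the filter or by DESeq2. AXIN2, a scaffold of the β-catenin destruction complex and a Wnt target, had 4.05 to 7.12 CPM (median 5.29) in DMSO and 0.425 to 1.22 CPM (median 0.717) in tunicamycin. RNF43 and ZNRF3, ubiquitin ligases that remove Wnt receptors, fell by 0.71 and 0.50.

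The remaining lists are read against the same shares, 19.8% higher and 22.1% lower. Ribosomal protein genes had 4 calls higher and 0 lower of 20, all under 0.24 on the log2 scale, a share higher like that of all genes, with 2 calls without the replicate term and 11 without replicate 2. Replication and mitosis genes had 4 higher, near the share of all genes, and 8 lower of 18 (median -0.10). The higher calls fell to 1 without the replicate term, without the filter or without clone D12, and to 2 without clone E4 or without replicate 1. The licensing factor CDC6 had 188 to 217 CPM (median 192) in DMSO and 432 to 471 CPM (median 451) in tunicamycin. Cholesterol genes had 8 higher and 0 lower of 15 (median 0.14), and 5 higher without clone E4: STARD4, a sterol carrier, rose 3.51-fold. Interferon-stimulated genes had 1 higher and 3 lower of 9, and 1 lower without clone E4, with IFIT1 falling by 0.84 on the log2 scale from 1.06 to 2.30 CPM (median 1.87) to 0.347 to 1.54 CPM (median 1.02). Transcripts kept low by nonsense-mediated decay and snoRNA hosts had 10 higher and 2 lower of 13 (median 0.36), and 0 lower without clone D12 or without replicate 2. GADD45A, a growth arrest gene and decay target, rose 3.98-fold, from a median of 43.9 to 181 CPM. In the IGF2BP family and target list 1 of 7 tested genes was called higher, near the share of all genes, and 3 lower. The 1 was IGF2BP3 itself (log2 0.23, adjusted p 0.0194), whose 18.5 to 42.4 CPM in DMSO (median 22.6) and 19.4 to 51.1 CPM in tunicamycin (median 27.9) overlapped, and which did not pass without the replicate term (adjusted p 0.0840). It also did not pass without clone D12 (0.0967), without clone E4 (0.0978) or without replicate 2 (0.0529). CCND1, an IGF2BP3-bound cyclin mRNA, fell by 0.43.

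**Figure D2:**
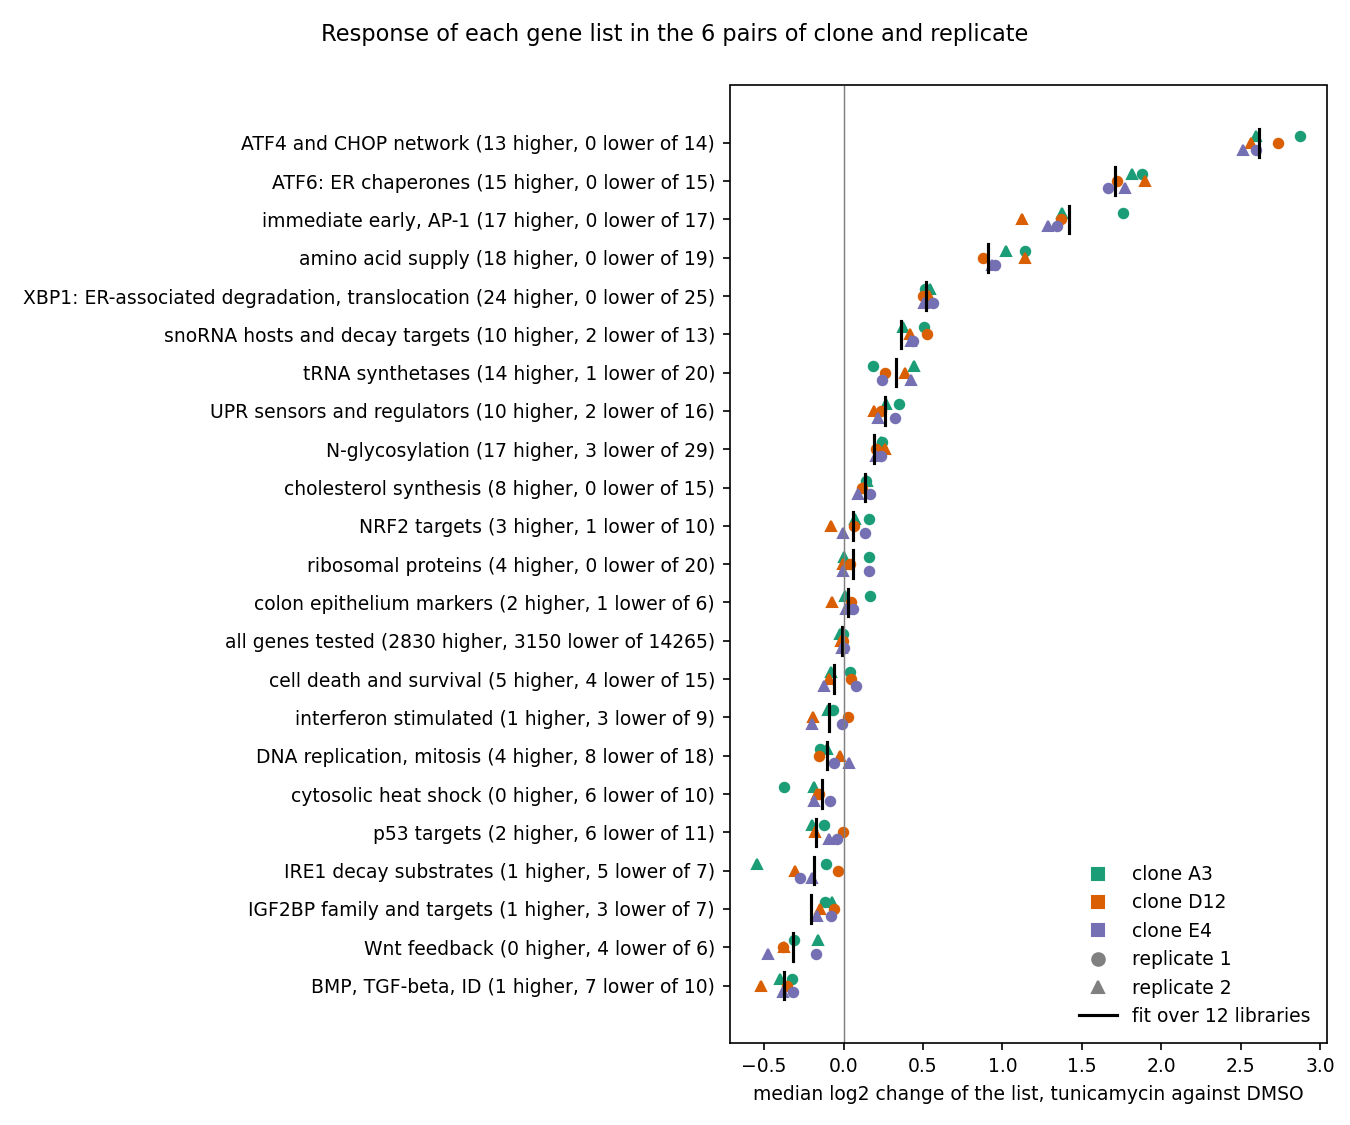
Median log2 change of each gene list (x axis, tunicamycin against DMSO) in the 6 pairs of clone and replicate, with black bars for the median from the fit over 12 libraries and, beside each name, the genes called higher and lower of those tested. The ATF4 and CHOP network (2.61) and the ER chaperones (1.71) lie farthest from 0, and the 6 points of a list mostly lie close together.

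Consistency over the clones was examined in each clone's own response. Called genes numbered 2896 in A3 (1449 higher, 10.2%, and 1447 lower, 10.1%), 2828 in D12 (1368 higher, 9.59%, and 1460 lower, 10.2%) and 2506 in E4 (1280 higher, 8.97%, and 1226 lower, 8.59%). Called in all 3 clones were 1830 of the 14265 genes tested, 972 higher and 858 lower, each in 1 direction. The 3 responses came from 1 fit with a spread pooled over the clones, so these calls are not 3 separate results. No gene was called higher in one clone and lower in another. Without the replicate term the counts fell to 1915, 1824 and 1611. The clones share no library, but same-numbered libraries vary together, as given for the replicate number above.

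The 3 responses were then compared gene by gene. Of the 5980 genes called over all clones, 5017 (83.9%) moved in the same direction in all 6 pairs of clone and replicate, against 5506 of the 14265 tested (38.6%). Of the 476 with a log2 change over 1 in size, 466 did. Both sets were called on these same libraries, so their agreement over the pairs follows in part from the selection. The 5506 also include the 5017. HSPA5 rose by 3.10 in A3, 3.14 in D12 and 3.06 in E4 on the log2 scale, HERPUD1 by 5.14, 5.06 and 5.13, and CDC6 by 1.18, 1.21 and 1.18. DDIT3 rose by 6.81, 6.39 and 6.202 (A3, D12 and E4), and BMP4 had -2.14, -2.03 and -1.74. Over the 476 genes the median gap between the strongest and weakest clone was 0.31, 325 stayed within 0.5, 53 had a gap over 1, and 1, the low-count gene SOWAHA, differed in sign (-1.54, -2.12 and 0.08). Among the 257 with a mean count of at least 100, the median gap was 0.20 and 238 stayed within 0.5. The 1 with a gap over 1 was RN7SL1, an RNA of the signal recognition particle named here after its values were seen, at -0.80, -2.69 and -0.69 in A3, D12 and E4. Its mean count was 147, and edgeR called its difference between clones only without the filter on low counts. The median size of the 476 changes was 1.41 in A3, 1.36 in D12 and 1.34 in E4. The treated A3 libraries differed more from each other than those of any other clone and treatment. Across the 14265 genes the responses of A3 and D12 correlated with r 0.815, those of A3 and E4 with 0.812 and those of D12 and E4 with 0.802. Across the 10211 genes with a mean count of at least 100, r was 0.929, 0.943 and 0.936 in that order. These are correlations across genes, which are not independent replicates.

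**Figure D3:**
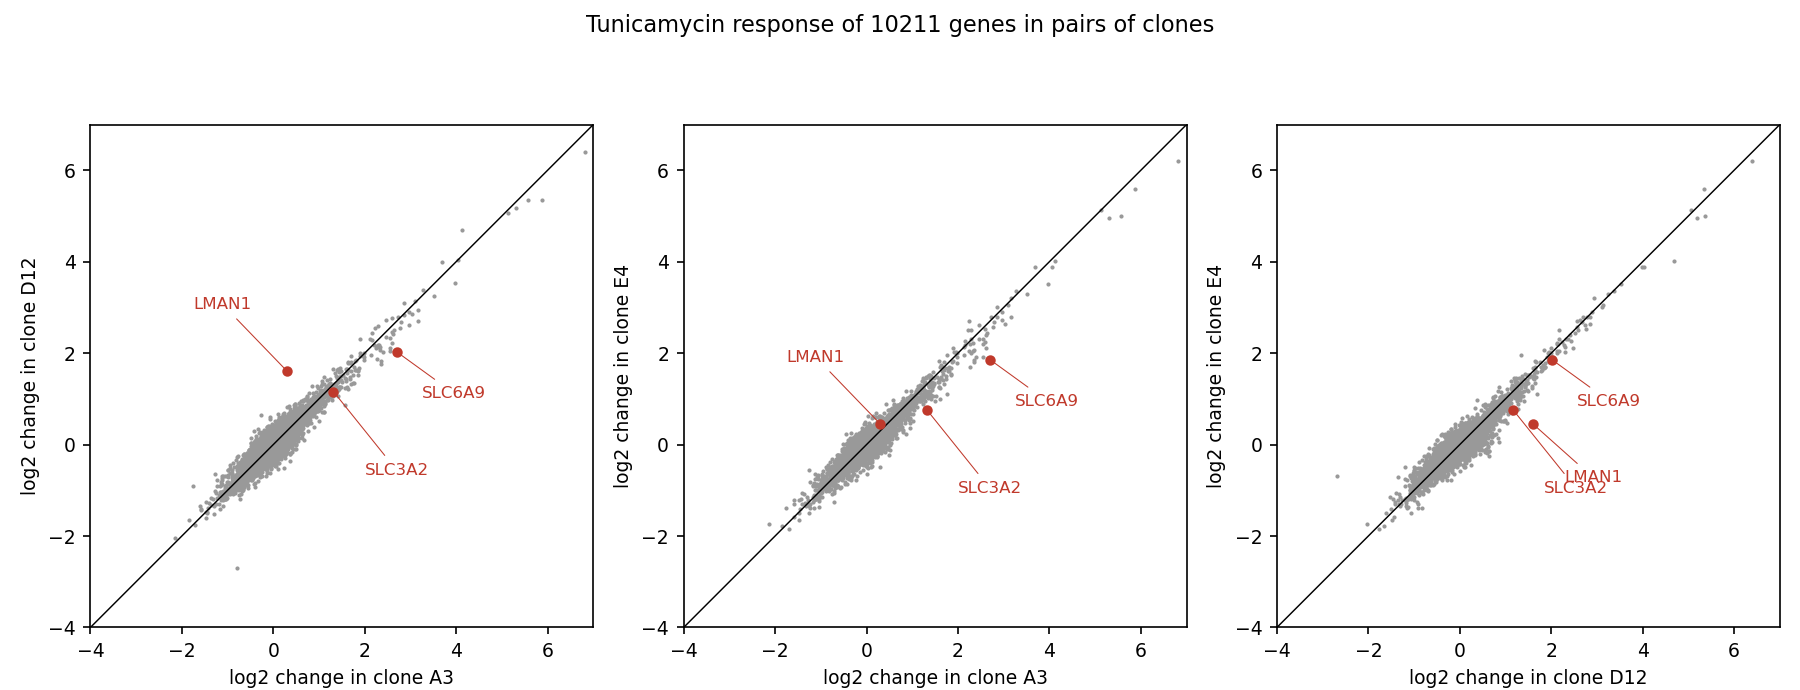
Log2 change of 10211 genes with a mean count of at least 100 in one clone (x axis) against another (y axis), with the line of equal response. Most points lie on the line, and LMAN1, SLC6A9 and SLC3A2 are marked.

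A test of the difference between clones found no gene: edgeR's F test called 0 of 14265 (0%), with 213 at an unadjusted p under 0.05, and DESeq2 called 1, LMAN1. The pairwise tests also called 0 (0% each), with 324 genes at an unadjusted p under 0.05 for D12 against A3, 302 for E4 against A3 and 246 for D12 against E4. Each unadjusted count lay below the 0.05 share that p-values without any difference would give, so the tests were conservative. The fit held no term for treatment by replicate number, for which 2528 genes had an unadjusted p under 0.05. Whether that variation hid differences between clones was not tested. The standard error of a pairwise difference had a median of 0.27 on the log2 scale over the 476 large responses. That is not a detection limit, since differences well above it also went uncalled in edgeR. The gap between the strongest and weakest clone was 1.30 for LMAN1 and 0.86 for SLC6A9, neither of them called. Absence of a call therefore does not show that the clones responded alike.

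The smallest p-values belonged to LMAN1, SLC6A9 and SGMS1. LMAN1, a cargo receptor that carries glycoproteins from the ER to the Golgi, had 14.0 and 18.05 CPM in the D12 DMSO libraries, against 176 and 171 CPM in A3 and 150 and 139 CPM in E4. In tunicamycin D12 had 39.1 and 58.7 CPM, A3 190.5 and 241 CPM, and E4 194 and 201 CPM. The D12 libraries thus stood far below those of the other clones under both treatments. The log2 response was 1.605 in D12, 0.30 in A3 and 0.45 in E4 (adjusted p 0.596 by edgeR, 8.00e-08 by DESeq2 and 0.00157 in an edgeR fit over all 32 libraries and 1.07e-21 in edgeR without the filter on low counts). Scaled over all 32 libraries, LMAN1 had 135 to 152 CPM in parental DMSO libraries and 135 to 153 CPM in clones B7 and F6 of the IGF2BP2 knockout. The IGF2BP2 knockout clone G6 lay between, at 57.7 and 60.5 CPM.

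SLC3A2, the heavy chain of the cystine and leucine carriers, rose least in E4. It had 409 and 407 CPM in E4 DMSO libraries and 732 and 660 CPM in tunicamycin, against 455 and 381 CPM rising to 1170 and 917 CPM in A3 and 477 and 451 CPM rising to 1082 and 994 CPM in D12. The log2 response was 0.77 in E4, 1.32 in A3 and 1.16 in D12. The difference did not pass in the filtered edgeR fit of the 12 libraries (adjusted p 1.00) or by DESeq2 (0.108), and passed in edgeR without the filter (9.47e-05) and over all 32 libraries (0.0401). SLC6A9, a glycine carrier, rose by 2.71 in A3, 2.02 in D12 and 1.85 in E4, from DMSO levels of 3.68 and 3.80 CPM in A3 and 5.58 to 6.34 CPM in the other clones. Treated levels spanned 21.7 to 25.1 CPM over the 6 libraries. SGMS1, a sphingomyelin synthase of the Golgi, rose by 0.80 in A3, 0.87 in D12 and 0.32 in E4, also without a call.

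**Figure D4:**
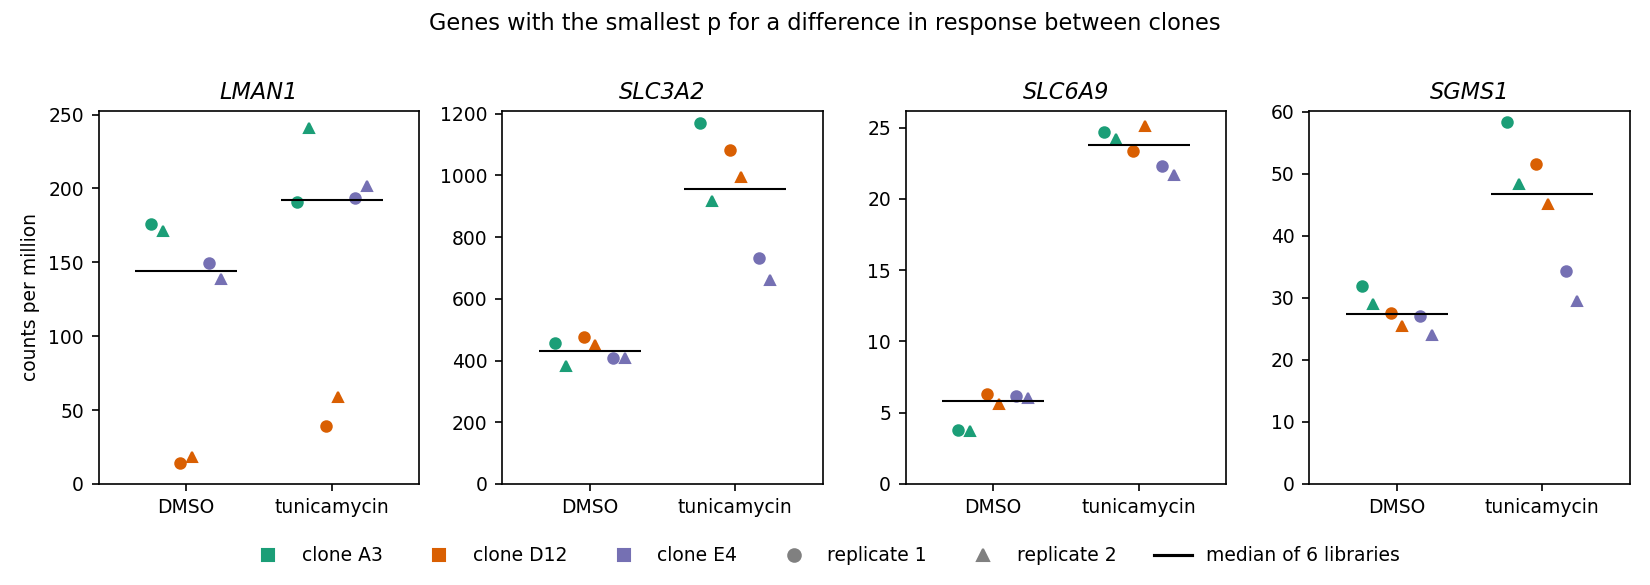
CPM (linear axis from 0) of LMAN1, SLC3A2, SLC6A9 and SGMS1 in each library, by treatment and clone, with a line at the median of 6 libraries. LMAN1 in D12 lies below 60 CPM under both treatments, and treated SLC3A2 and SGMS1 lie lowest in E4.

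Replicate number was then compared in the same way, a comparison added after the data were seen. With treatment by replicate number in the edgeR fit, 0 of 14265 genes were called higher (0%) and 0 lower (0%), with 2528 at an unadjusted p under 0.05 and a smallest adjusted p of 0.0515. DESeq2 called 221. Without clone A3 edgeR called 565 and without clone D12 it called 51. The tRNA synthetase median was 0.19 to 0.26 in the replicate 1 pairs and 0.39 to 0.44 in the replicate 2 pairs, while ribosomal protein medians were 0.04 to 0.16 and -0.01 to 0.00. The ER chaperone medians of the replicate numbers overlapped, 1.66 to 1.88 and 1.77 to 1.90. HSP90B1 (GRP94), a chaperone of that list and one of the genes tied at the smallest adjusted p, rose by 1.24 with replicate number 1 and by 1.73 with number 2. SEL1L, the partner of SYVN1, rose by 2.41 and 2.79 (adjusted p 0.0577). Both were chosen for mention after their values were seen.

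A model with a genotype-specific treatment term tested whether the response of the knockout differed from that of cells with IGF2BP3. In edgeR 0 of 15313 genes were called against parental cells (0%, 522 at an unadjusted p under 0.05) and 0 of 14916 against the IGF2BP2 knockout (0%, 584 at an unadjusted p under 0.05). DESeq2 called 1 and 2. Both unadjusted edgeR counts lay below the 0.05 share that p-values without any difference would give. The 12 knockout libraries enter each of these comparisons, so the pair is not independent. Against parental cells the smallest p-values were those of TNFRSF10B, GEM and FOXC1. TNFRSF10B rose by 1.16 in the knockout and 1.44 in parental cells (difference -0.28, adjusted p 0.265 by edgeR and 0.0486 by DESeq2). GEM, a small GTPase, rose by 0.75 and 1.16, and FOXC1, a forkhead transcription factor, had -0.76 and -0.42. Against the IGF2BP2 knockout they were those of FAM107B, HSPA5 and IGF2BP2. FAM107B rose by 1.28 against 0.97. IGF2BP2, the gene cut in the other knockout, had 0.07 against 0.30 (adjusted p 0.186 by edgeR and 0.0156 by DESeq2).

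HSPA5 rose by 3.10 in the IGF2BP3 knockout, by 3.35 in parental cells and by 3.39 in the IGF2BP2 knockout on the log2 scale. The difference of -0.25 from parental cells was not called with the filter on low counts (adjusted p 0.604 by edgeR and 0.234 by DESeq2) and was called by edgeR without it (1.70e-05). The difference of -0.30 from the IGF2BP2 knockout was not called by edgeR with the filter (adjusted p 0.179) and was called by DESeq2 (0.0156) and by edgeR without the filter (3.84e-12). All 15 chaperone genes had a smaller fitted response in the IGF2BP3 knockout than in parental cells (median difference -0.14) and than in the IGF2BP2 knockout (median -0.14), and with the filter edgeR called none. Without the filter edgeR called HSPA5 against parental cells, and HSPA5, HSP90B1 (adjusted p 1.04e-08) and HYOU1 (0.0101), both chaperones of the ER lumen, against the IGF2BP2 knockout. With the filter neither HSP90B1 (adjusted p 0.991 by edgeR and 0.99985 by DESeq2) nor HYOU1 (0.4755 and 0.0891) was called against the IGF2BP2 knockout. Over all genes 7186 of 15313 and 6731 of 14916 were smaller, with medians of 0.01 and 0.01. Without clone D12 the count was 14 of 15 in both, without clone A3 it was 14 of 15 against the IGF2BP2 knockout, and with clone G6 left out it was 14 of 15 against the IGF2BP2 knockout (median -0.10). The labels of the G6 controls disagree about treatment, and they were placed by title. In the XBP1 list 21 of 25 and 20 of 25 were smaller (medians -0.04 and -0.05), and in the ATF4 and CHOP list 12 of 15 and 8 of 14 (medians -0.14 and -0.02).

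**Figure D5:**
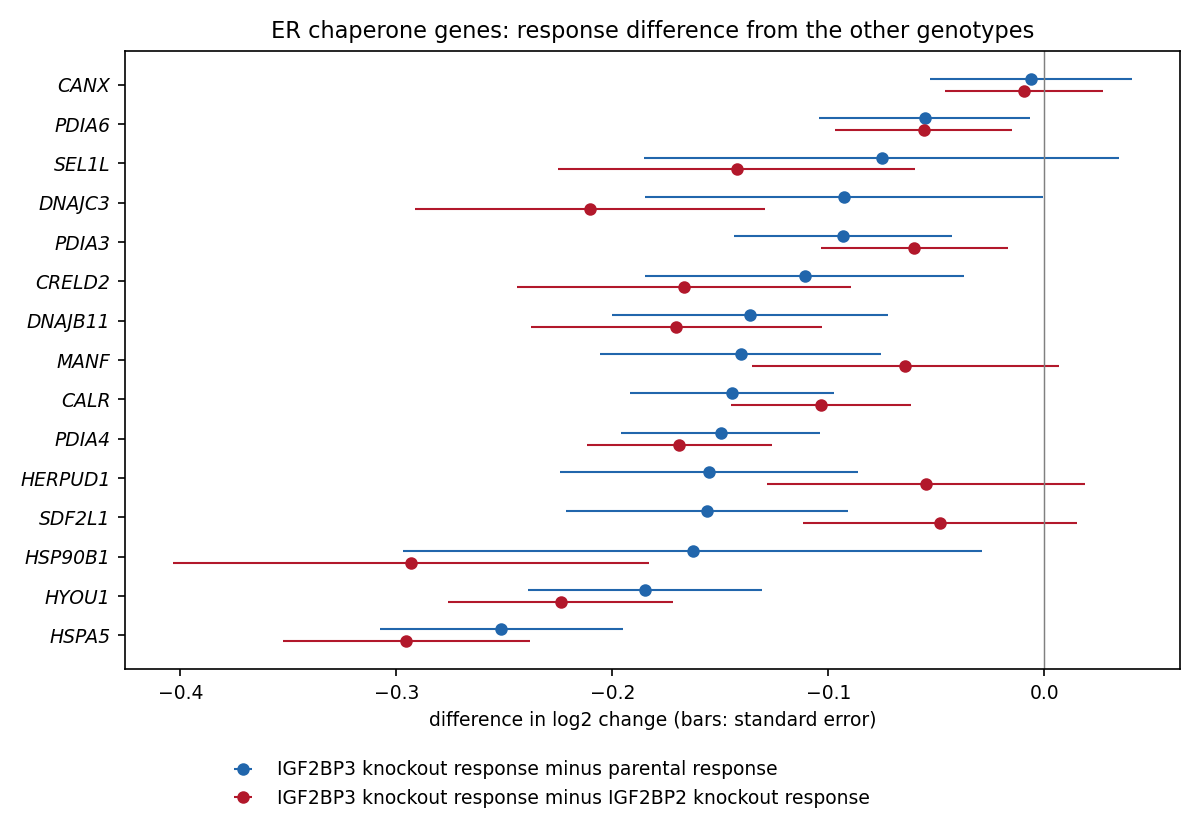
Difference in log2 change (x axis) between the IGF2BP3 knockout and parental cells (blue) or the IGF2BP2 knockout (red) for the 15 chaperone genes, with standard errors from the edgeR interaction fits. All 30 points lie below 0, from CANX near 0 to HSPA5 at -0.25 and -0.30, and none was called in these fits.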

How the data were processed

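The authors deposited one table of raw gene counts for 32 poly(A) RNA libraries; per the submitters' processing notes STAR 2.7.5c and hg38 were used, and the counting tool, its strand setting and the annotation are not given in the sources used here. The members and gene lists were chosen with earlier results of these data known. Genes passing filterByExpr were fitted in R 4.3.3 with edgeR 4.0.16 (TMM, quasi-likelihood, terms for clone, replicate number and treatment, 7 residual degrees of freedom) and Benjamini-Hochberg adjustment. Clone responses, and genotype interactions in 20 and 24 libraries, were fitted likewise. The fits were tested on simulated counts that held no effect of replicate number, so that test does not cover such variation. Nothing says that libraries of a clone came from separate cultures, so p-values measure the spread between these libraries, which may be technical. Deviations of same-numbered libraries from the mean of their clone and treatment correlated with r 0.113 to 0.539 (median 0.362), over 0.1 in 15 of 15 pairs, so the numbers pair the libraries. Chi-square tests found the 2 libraries of each clone and treatment to differ by more than sampling noise, and none was merged. The chi-square per degree of freedom was 25.2 for the treated A3 libraries and 5.24 to 8.60 for the other pairs.

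List genes may be named, and beyond them the 10 largest rises and 10 largest falls among called genes with a symbol, a mean count of at least 100 and 1 direction in all 6 pairs, and the genes with the smallest p for each difference. Of 61 genes checked, 19 share exon positions with another counted gene in GENCODE 29, among them DDIT3 with MARS and IGF2BP3 with MALSU1 on the opposite strand, and their counts are uncertain to that extent. Log2 CPM of pairs used a prior count of 2. Of 25 lists with 349 genes, the marker lists serve only to check the cells. Alternatives were DESeq2 1.42.0, its size factors, other filters, other blocks, summed counts, all 32 libraries, a log2 threshold of 1 and clones or replicates left out. Promoters were matched by symbol to RefSeq (GRCh38.p14) for 10393 of 13432 tested symbols. Values of some list genes are not reported here.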

Additional observations from a re-analysis of the deposited data

Results flagged for a closer look

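In 4 of 122 groups of 6 libraries one library lay apart by Dixon's test, and chance alone sets apart about 1 group in 20. SESN2 was at 7.34 CPM in the DMSO library of E4 replicate 2, against 5.55 to 6.04 CPM in the other five. PMAIP1 was at 149 CPM in the DMSO library of A3 replicate 1, where the next was 129 CPM. HMOX1 was at 47.0 CPM in the DMSO library of D12 replicate 2, where the next was 37.8 CPM. IGF2BP2 was at 197 CPM in the tunicamycin library of A3 replicate 1, where the next was 177 CPM. SESN2 and PMAIP1 were called higher by edgeR in every fit that left out a clone or a replicate number.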

How the results depend on the processing

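No gene of the 5980 changed direction under another tool, scaling, filter, block or clone left out; without replicate 1 there were 2 such genes and without replicate 2 there were 7. Of the 476 large changes, 447 to 476 were called wherever they were tested, counting every alternative except the stricter filter, which tested 385 and called 385. Calls numbered 4820 with no replicate block, 6031 with a clone-by-replicate block, 5308 by DESeq2, 5938 without a filter and 4264 to 6602 with a clone or replicate number left out. With the size rule 476 remained, and without a filter 232 genes fell by more than 1. Per clone, the fit with no replicate block called 1915 (A3), 1824 (D12) and 1611 (E4). The difference between clones was called for 5 genes without a filter, 1 by DESeq2 and 2 over all 32 libraries, LMAN1 in each and SLC3A2 in the first and last. RN7SL1 was among the 5 called without a filter. The response differed from parental cells in 1 gene by DESeq2 and 8 without a filter, and from the IGF2BP2 knockout in 2 and 16, chaperones among them. The response by replicate number was called for 221 genes by DESeq2 and 0 to 565 with a clone left out. The list medians that changed sign lay near 0: with a clone or replicate number left out, that of death and survival genes ranged from -0.12 to 0.0092, of NRF2 targets from -0.0042 to 0.13 and of replication genes from -0.17 to 0.00012. The change of the gene HMOX1 ranged from -0.015 without clone E4 to 0.054 without replicate 2, and was -0.0053 without replicate 1. The causes were not tested. Clone differences without a replicate number leave no residual degrees of freedom and were not run. Depth limits AXIN2, IFIT1 and ASNS, with about 1 CPM in one treatment.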
